A study of Mus musculus with 4 samples.

Results

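The expression of 9 genes of brown fat and of the uncoupling protein family (Ucp1, Ucp2, Ucp3, Ppargc1a, Adrb3, Cidea, Dio2, Elovl3 and Prdm16) was followed in the mRNA table of mouse C3H10T1/2 cells. They were taken by symbol, all transcripts listed under a symbol were summed, and they make up 9 of the 21878 genes in the table. C3H10T1/2 is a mesenchymal line of mouse embryonic origin that can form muscle, fat, cartilage and bone cells. Both groups came from this single line. The first held untreated cells (replicates 1 and 2). The second held cells given 20 µmol/L 5-azacytidine (5-AZA, replicates 101 and 102), a cytidine analogue that blocks DNA methyltransferases. Exposure lasted 72 h per the labels, and the cells then stayed 21 days in fresh medium. The labels list no culture time for the untreated cells, so time in culture and treatment cannot be told apart. RNA was sequenced in bulk after ribosomal RNA removal, and a change in the number of cells of a type cannot be told apart from a change in RNA per cell.

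Brown and beige fat cells burn fuel to make heat. Cold releases noradrenaline, which acts on the beta-3 adrenergic receptor (Adrb3), and the signal raises transcription through the coactivator Ppargc1a and local thyroid hormone through the deiodinase Dio2. Ucp1 then lets protons back across the inner mitochondrial membrane without ATP synthesis. Prdm16 is a transcription regulator that sets brown and beige fat identity, while Ucp2 and Ucp3 are relatives of Ucp1 that are known from many tissues and from skeletal muscle, respectively.

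Cells given 5-AZA had higher Ucp2, Ucp3, Adrb3, Dio2 and Cidea mRNA than untreated cells, whereas Ucp1 and Prdm16 were listed at or near 0 in all 4 samples. Ppargc1a differed by less than 2-fold on the log2(FPKM + 0.1) scale and was not called, and its direction turned after quantile normalization. These 5 called genes stand among 9 members. Over the table, 13.1% of the 13199 genes tested were called higher, which is 7.88% of all 21878 genes, and 1.32% of those tested were called lower. After quantile normalization the split was 1041 genes higher and 886 lower, against 1724 and 174 here. No member was called lower by limma, and none was lower at an unadjusted p under 0.05. A call meant a limma Benjamini-Hochberg adjusted p below 0.05 and a change over 2-fold on log2(FPKM + 0.1), where FPKM is a fragment count scaled by transcript length and by the mapped fragments of the sample. Genes whose mean over all 4 samples was under 0.1 FPKM were not tested. The added 0.1 FPKM understates the change of low genes. Ucp2, Ucp3, Adrb3, Dio2 and Cidea passed this limit only through the 5-AZA samples, since each was under 0.1 FPKM in both untreated samples, so their joint direction among tested members follows from the limit. In 7 of the 9 members both 5-AZA samples lay above both untreated samples, as did 28.8% of all genes in the table and 36.8% of those tested.

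The sequences before the start sites of the 3 uncoupling protein genes and of Dio2 are shown because 5-AZA acts on methylation of cytosines in CG dinucleotides, and because the untreated levels of all 4 were near 0. Each line holds the 250 bases before the start site listed in the promoter reference, on the GRCm38.p6 mouse assembly. The Ucp2 window ends at 100493357, past the gene start of 100493337, so its last bases lie inside the gene. The bases run 5′ to 3′ on the strand of the gene, with CG dinucleotides in capitals. These stretches were chosen after the expression values were seen, and methylation was not measured.
Ucp1, chr8:83290098-83290347, plus strand: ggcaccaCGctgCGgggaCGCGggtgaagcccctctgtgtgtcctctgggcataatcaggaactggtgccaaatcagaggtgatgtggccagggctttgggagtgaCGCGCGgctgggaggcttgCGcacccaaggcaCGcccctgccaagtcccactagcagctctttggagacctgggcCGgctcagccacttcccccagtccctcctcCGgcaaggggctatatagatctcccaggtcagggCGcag
Ucp2, chr7:100493108-100493357, plus strand: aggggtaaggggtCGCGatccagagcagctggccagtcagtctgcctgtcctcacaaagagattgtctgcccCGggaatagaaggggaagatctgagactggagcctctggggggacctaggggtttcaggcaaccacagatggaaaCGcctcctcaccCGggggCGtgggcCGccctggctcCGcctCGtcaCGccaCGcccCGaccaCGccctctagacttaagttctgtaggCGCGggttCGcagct
Ucp3, chr7:100472741-100472990, plus strand: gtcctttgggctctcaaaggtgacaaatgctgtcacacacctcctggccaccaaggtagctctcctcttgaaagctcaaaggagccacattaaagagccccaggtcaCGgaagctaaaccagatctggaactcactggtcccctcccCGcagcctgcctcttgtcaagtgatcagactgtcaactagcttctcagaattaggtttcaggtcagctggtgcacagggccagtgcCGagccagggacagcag
Dio2, chr12:90739039-90739288, minus strand: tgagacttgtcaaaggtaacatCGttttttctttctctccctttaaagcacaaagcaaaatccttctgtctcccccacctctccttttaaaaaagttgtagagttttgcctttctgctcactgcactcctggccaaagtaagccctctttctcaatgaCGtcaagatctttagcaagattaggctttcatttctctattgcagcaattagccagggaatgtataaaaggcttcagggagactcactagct

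Ucp1 held 12 CG dinucleotides in this window and Ucp2 held 16, while Ucp3 held 3 and Dio2 held 2. Over the 32851 promoters in the reference the median was 6. At least as many as in Ucp1 were found in 33.5% of promoters, at least as many as in Ucp2 in 25.4%, as in Ucp3 in 71.0% and as in Dio2 in 81.2%. The 2 CG-rich windows of the uncoupling proteins belonged to Ucp1, a gene listed at 0 in 3 samples, and to Ucp2, the member with the highest level after 5-AZA. The windows of Prdm16 (chr4:154636874-154637123) and Ppargc1a (chr5:51567726-51567975) held 22 and 5 CG dinucleotides. Both lay within the span of their gene and not before it. Adrb3 and Elovl3 had no entry in the promoter reference, and Cidea was left out of the promoter search. Motifs were searched on both strands of the 6 windows. The full cyclic AMP response element, TGACGTCA, was found once in the Dio2 window and in none of the other 5, and 1.55% of all promoters hold it. CAGCTG, an E-box, was present once in Ucp2 and once in Ucp3 (13.0% of promoters). The direct repeat element of PPAR and RXR (DR1, without mismatches) was in none of the 6 windows on either strand, and in 0.0335% of promoters. No match says only that these letters are absent from the window.

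Among the uncoupling proteins, Ucp2 had the highest level. It was listed at 0 and 0.0767 FPKM in the untreated samples and reached 3.74 and 6.14 FPKM after 5-AZA (4.94 ± 1.70, SD, n = 2). Both treated samples thus lay far above both untreated ones, with a log2 change of 5.20 (SE 0.37, limma adjusted p = 1.97e-05). The log2 change was 5.55 without 5-AZA replicate 101 and 4.85 without 5-AZA replicate 102, and the call was lost in both fits. A fit without a sample, here and below, takes the gene's own spread from the other group alone. A call lost in such a fit therefore need not mean a smaller change. Over the 12 alternatives the log2 change of Ucp2 ranged from 2.49 to 7.35.

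Ucp3, the relative found mainly in skeletal muscle and brown fat, stayed low. It was listed at 0 and 0.0119 FPKM in untreated cells and at 0.248 and 0.170 FPKM after 5-AZA (0.209 ± 0.0548, SD, n = 2). The groups did not overlap, and the log2 change was 1.54 (SE 0.41, limma adjusted p = 0.0263). Its mean over the 4 samples, 0.108 FPKM, was just above the limit for testing. Adjusted p-values from limma ranged from 0.00603 to 0.723 over the alternatives. The call was lost without untreated replicate 1 (0.152), without untreated replicate 2 (0.112), with a pseudocount of 1 (0.0974), with curated transcripts alone (0.0871) and after quantile normalization (0.723). Ucp3 (chr7:100472991-100486432) and Ucp2 (chr7:100493337-100499629) are neighbours on the plus strand of chromosome 7, with 6904 bases between them.

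Ucp1 (chr8:83290348-83298456), the uncoupling protein that makes heat in brown fat, was listed at 0 in both untreated samples and in 5-AZA replicate 101, and at 0.0230 FPKM in 5-AZA replicate 102. It was too low to be tested. The 23 housekeeping genes examined, a list chosen after the data were seen, were never at 0 and none was under 3.54 FPKM. Such levels lie far above that of Ucp1, so they cannot show whether a listed 0 means absence.

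**Figure D1:**
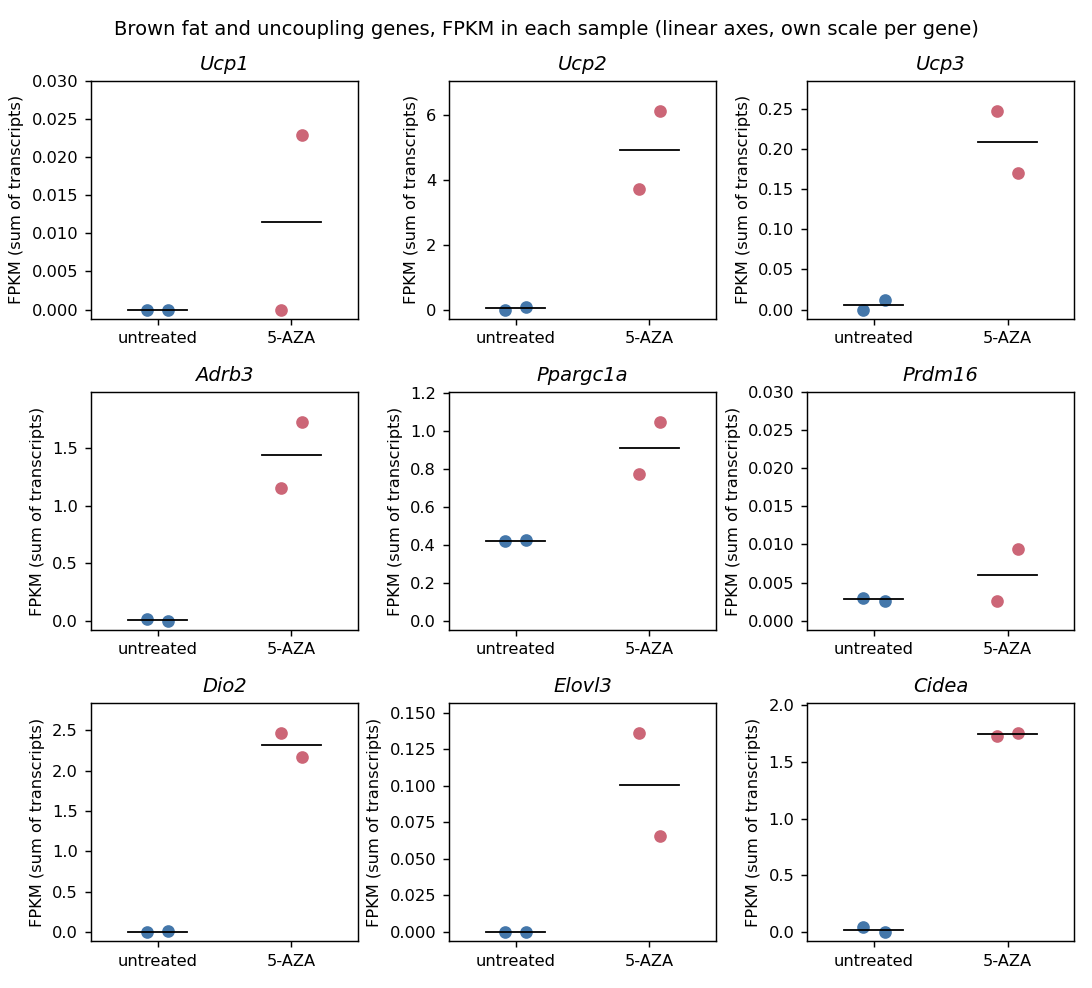
FPKM of the 9 members, 1 panel per gene with its own linear y axis, for the untreated and 5-AZA groups on the x axis; points are single samples and bars are means of 2. Ucp2, Dio2, Cidea and Adrb3 exceeded 1 FPKM in both 5-AZA samples, while Ucp1 and Prdm16 stayed under 0.1 FPKM in all 4.

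Adrb3 (chr8:27225776-27230845, GRCm38.p6), the receptor through which noradrenaline acts on fat cells, was measured at 0.0130 and 0 FPKM in untreated cells and at 1.16 and 1.73 FPKM after 5-AZA (1.44 ± 0.407, SD, n = 2). Both treated samples were above both untreated samples, by 3.83 on the log2 scale (SE 0.35, limma adjusted p = 8.11e-05). It kept its call in all 11 alternatives in which it was tested, with adjusted p between 3.02e-07 and 0.0215 in limma. Adrb1, the beta-1 receptor, was listed at 0.0451, 0, 0.0670 and 0.128 FPKM in untreated 1, untreated 2, 5-AZA 101 and 5-AZA 102, too low to be tested.

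Ppargc1a (chr5:51454249-52115853), the coactivator that promotes mitochondrial biogenesis, was the only member above 0.1 FPKM in untreated cells. It was measured at 0.419 and 0.424 FPKM there and at 0.775 and 1.05 FPKM after 5-AZA. Both treated samples lay higher, and the log2 difference was 0.94 (SE 0.29, limma adjusted p = 0.0460), short of the 2-fold threshold on this scale. The difference depended on the added value, at 0.42 with a pseudocount of 1 and 1.08 with 0.01 (limma adjusted p = 0.0598 for the latter). Over the 11 alternatives it ranged from -0.10 to 1.48, and the gene was called in none. After quantile normalization its sign turned, with a log2 difference of -0.10 (adjusted p = 0.754 in limma, the highest of a range that began at 0.0258). Prdm16 (chr4:154316122-154637360) was listed at 0.00300 and 0.00259 FPKM in untreated cells and at 0.00258 and 0.00947 FPKM after 5-AZA. The groups overlapped and the gene was too low to be tested.

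Dio2 (chr12:90724552-90739038), which turns the prohormone thyroxine into active triiodothyronine inside the cell, rose to similar levels in both 5-AZA samples. It was listed at 0 and 0.00484 FPKM in untreated cells and at 2.47 and 2.17 FPKM after 5-AZA (2.32 ± 0.213, SD, n = 2). The log2 change was 4.56 (SE 0.31, limma adjusted p = 1.36e-05), and it was called in all 12 alternatives, with adjusted p from 1.32e-09 to 0.0162 in limma. Cidea, a lipid droplet protein abundant in brown fat, was measured at 0.0394 and 0 FPKM in untreated cells and at 1.73 and 1.75 FPKM after 5-AZA (1.74 ± 0.0165, SD, n = 2). Its log2 change was 3.96 (SE 0.33, limma adjusted p = 4.67e-05), called in the 11 alternatives in which it was tested (2.97e-08 to 0.0488). Elovl3 (chr19:46131897-46135694), an elongase of very long chain fatty acids that is induced in cold-exposed brown fat, was listed at 0 in both untreated samples and at 0.136 and 0.0655 FPKM after 5-AZA. With a mean of 0.0504 FPKM it was the nearest of the untested members to the limit of 0.1 FPKM, and no fold is given.

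After 5-AZA the mean levels fell in the order Ucp2, Dio2, Cidea, Adrb3, Ppargc1a, Ucp3, Elovl3, Ucp1 and Prdm16. FPKM is scaled by transcript length, so levels can be set side by side between genes. Neighbours in this order overlapped between their single samples in 2 cases, Cidea with Adrb3 and Ucp1 with Prdm16. Even the highest member was of moderate level: 7642 of the 21878 genes had a higher 5-AZA mean than Ucp2, 9670 than Dio2, 10238 than Cidea, 10540 than Adrb3 and 15541 than Ucp1.

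**Figure D2:**
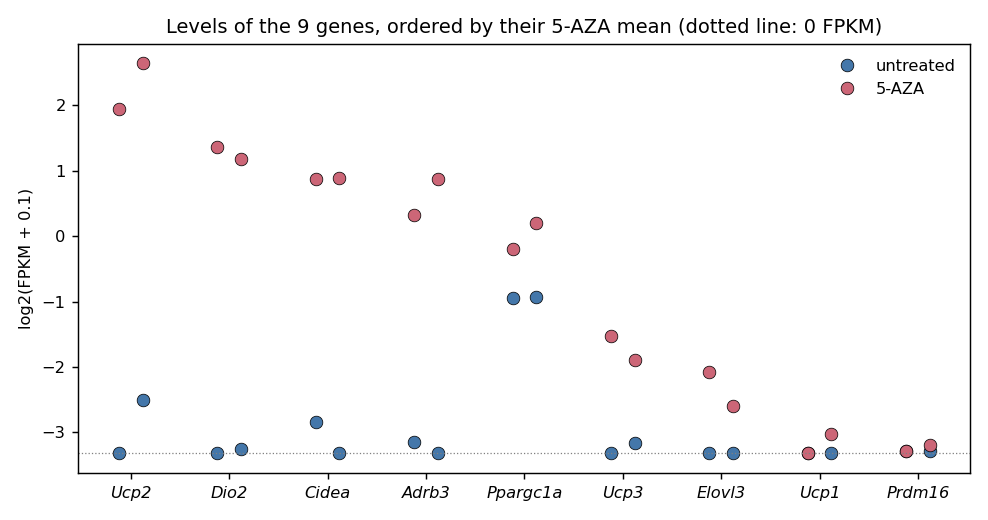
Level of each member as log2(FPKM + 0.1) on the y axis, in falling order of its 5-AZA mean; points are single samples of both groups and the dotted line marks 0 FPKM. Ucp2 averaged 4.94 FPKM and Ucp3 0.209 FPKM after 5-AZA, and Ppargc1a is the only gene whose untreated points lie well above the line.

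The 9 genes comprised 35 transcripts, of which 7 reached the limit for testing and 3 were called higher. Of the 35557 transcripts tested over the whole table, 2.1% were called higher and 0.262% lower, 2.36% in all. The called transcripts were NM_011671.5 of Ucp2 (limma adjusted p = 0.0111), NM_010050.3 of Dio2 (0.0210) and NM_007702.2 of Cidea (0.0359). NM_011671.5 made up 100% and 97.0% of Ucp2 in the 5-AZA samples. Most of Adrb3 was assigned to NM_013462.3, with 78.4% in 5-AZA replicate 101 and 71.5% in 5-AZA replicate 102. Ppargc1a was divided among 10 transcripts, and the division differed between replicates. The curated NM_008904.2 was measured at 0.172 and 0.0939 FPKM in untreated cells and at 0.256 and 1.05 FPKM after 5-AZA, and the predicted XM_017320716.1 took 41.2% of the gene in 5-AZA replicate 101 alone. Transcripts of a gene share most of their reads, so how these were split is uncertain.

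**Figure D3:**
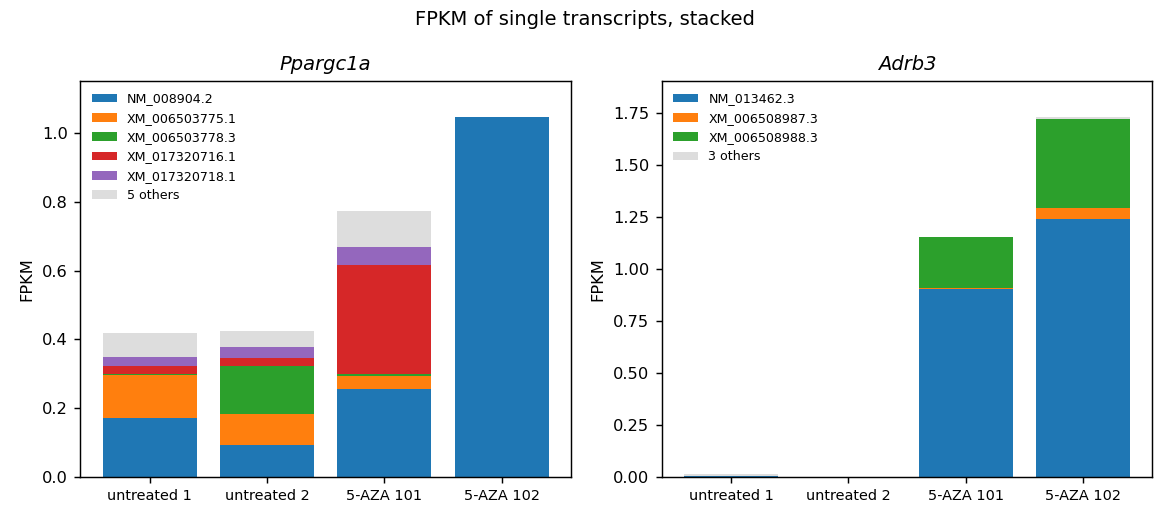
FPKM of the transcripts of Ppargc1a (left) and Adrb3 (right), stacked for each of the 4 samples on linear axes of their own. In Ppargc1a the curated NM_008904.2 held 33.1% of the gene in 5-AZA replicate 101 and 100% in 102, while in Adrb3 NM_013462.3 held 78.4% and 71.5%.

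The rest of the brown fat pathway was followed in 4 lists of 99 genes. Of the 77 that could be tested, 19 were called higher (24.7%, against 13.1% of all genes tested) and 0 were called lower by limma, with 5 lower at an unadjusted p under 0.05. Of these 19, 8 were under 0.1 FPKM in both untreated samples and passed the limit only through the 5-AZA samples, so the share is a description and not read against the background. Genes of these lists named without a call were picked after their values were seen. Of 30 transcription regulators, 22 were tested, 1 was called higher and none lower, with a median log2 difference of 0.21 against 0.05 over all genes tested. The called gene was Cebpa, a driver of the fat cell programme, at 2.49 and 2.64 FPKM in untreated cells and 13.5 and 19.3 FPKM after 5-AZA (log2 change 2.61, SE 0.19, limma adjusted p = 2.02e-05). Pparg, the master regulator of fat cell formation, was measured at 13.8 and 15.9 FPKM and at 22.2 and 36.0 FPKM, respectively. Its log2 difference of 0.92 (limma adjusted p = 0.0114) was under 2-fold. The brown lineage factor Zic1 was listed at 0 in 3 samples and at 0.0156 FPKM in 5-AZA replicate 102, and Lhx8 was listed at 0 in all 4. Ebf2, which marks brown and beige precursors, was measured at 0.963 and 1.05 FPKM in untreated cells and at 1.47 and 1.19 FPKM after 5-AZA, a log2 difference of 0.36 with limma adjusted p = 0.339. Among the 22 tested regulators, both 5-AZA samples lay above both untreated samples in 13 and below in 6 (36.8% and 25.4% of all genes tested). Ebf3 was lower, from 5.65 and 5.00 FPKM to 3.04 and 2.98 FPKM (log2 difference -0.80, limma adjusted p = 0.00855, not called).

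Of 27 genes of adrenergic and hormone signalling, 19 were tested, 7 were called higher (Fgf21, Fndc5, Pde3b, Vegfa, Pde4d, Klb and Acvr1c) and none lower. The median log2 difference was 0.75, or 0.60 without the genes listed at 0 in both untreated samples. Fgf21, a hormone that promotes heat production in fat, was listed at 0 in both untreated samples and reached 5.48 and 7.86 FPKM after 5-AZA (limma adjusted p = 2.55e-06). Its co-receptor Klb was listed at 0 in both untreated samples and at 0.293 and 0.315 FPKM after 5-AZA. Fndc5, the precursor of the muscle hormone irisin, was measured at 0.143 and 0.0127 FPKM in untreated cells and at 0.797 and 1.57 FPKM after 5-AZA. Its log2 change was 2.89 (limma adjusted p = 0.00219), and the call was lost without 5-AZA replicate 101 (0.121) or 102 (0.175), without the low limit (0.0951), and with a pseudocount of 1, where the change was under 2-fold (0.00410). Over its 10 alternatives adjusted p ranged from 6.81e-06 to 0.175. Pde3b, a phosphodiesterase that breaks down cyclic AMP in fat cells, was measured at 1.12 and 0.706 FPKM and at 3.92 and 4.92 FPKM, respectively. Its log2 change was 2.18 (limma adjusted p = 0.000372), and the call was lost without 5-AZA replicate 101 (0.0994) or 102 (0.124) and without the low limit (0.0524), in a range from 3.00e-07 to 0.124.

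Of 29 thermogenic and mitochondrial effectors, 24 were tested, 9 were called higher and none lower, with a median log2 difference of 0.72 (0.57 without the genes listed at 0 in both untreated samples). Cox7a1, a cytochrome oxidase subunit of striated muscle and brown fat, was listed at 0 in both untreated samples and reached 24.6 and 27.5 FPKM after 5-AZA (limma adjusted p = 1.82e-07). Atp2a1, the calcium pump of fast skeletal muscle, was measured at 0.0661 and 0.112 FPKM in untreated cells and at 16.9 and 32.9 FPKM after 5-AZA (log2 change 6.98, limma adjusted p = 1.93e-06). Fabp3, the fatty acid binding protein of heart and muscle, was listed at 0 and 0.0699 FPKM and reached 3.76 and 5.60 FPKM. Its log2 change was 5.17 (limma adjusted p = 1.47e-05), and the call was lost without 5-AZA replicate 101 (0.0510) or 102 (0.0630), in a range that began at 2.70e-12. The other called effectors were Cox8b, Ckb, Ckmt2, Hspb7, Slc27a1 and Cpt1b. Of these, Cox8b, Ckmt2, Hspb7 and Cpt1b are also known from heart or skeletal muscle, and Ckb is the brain-type creatine kinase.

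**Figure D4:**
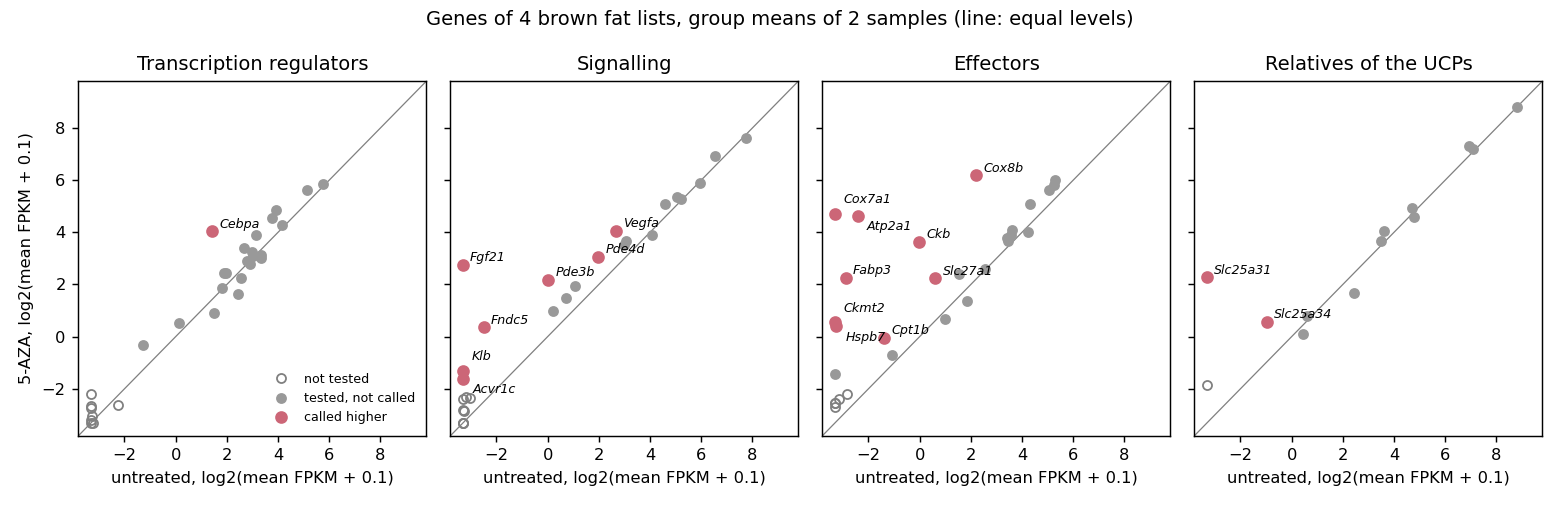
Each point is a gene of the 4 brown fat lists, with log2(mean FPKM + 0.1) in untreated cells on the x axis and after 5-AZA on the y axis; called genes are named and the line marks equal levels. The 19 called genes lie above the line, and most regulators lie close to it (median log2 difference 0.21).

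Of 13 relatives of the uncoupling proteins in the SLC25 family of mitochondrial carriers, 12 were tested, 2 were called higher and none lower, with a median log2 difference of 0.16. Slc25a31, an ADP/ATP carrier known from testis, was listed at 0 in both untreated samples and reached 4.29 and 5.17 FPKM after 5-AZA (limma adjusted p = 3.27e-06). Slc25a34 was measured at 0.551 and 0.275 FPKM in untreated cells and at 1.19 and 1.59 FPKM after 5-AZA (log2 change 1.58, limma adjusted p = 0.00957), and lost its call in 5 alternatives. These were the fits without 5-AZA replicate 101 (limma adjusted p = 0.168) or 102 (0.225), without the low limit (0.124), after quantile normalization (0.121) and with a pseudocount of 1, where the change was under 2-fold. Slc25a4, the ADP/ATP carrier of heart and muscle, overlapped between groups, at 455 and 444 FPKM in untreated cells and 418 and 487 FPKM after 5-AZA. Among the 12 tested, both 5-AZA samples lay above both untreated samples in 5 and below in 3 (36.8% and 25.4% of all genes tested). Of the latter, Slc25a14 went from 5.60 and 4.90 FPKM to 3.76 and 2.45 FPKM (log2 difference -0.77, limma adjusted p = 0.0368, not called). Slc25a27 went from 1.27 and 1.27 FPKM to 1.01 and 0.961 FPKM (log2 difference -0.34, limma adjusted p = 0.353).

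Markers of other cell types also moved beside the members, and their part in the members' values was not tested. Of 10 beige fat markers, 8 were tested and 5 were called higher (Aqp7, Slc36a2, Ear2, Tnfrsf9 and P2rx5). All of these but P2rx5 were under 0.1 FPKM in both untreated samples. They passed the limit only through the 5-AZA samples, so their direction follows from it. The summed level of the list was 2.89 and 2.33 FPKM in untreated cells and 10.8 and 11.9 FPKM after 5-AZA. Aqp7, a glycerol channel of fat cells in general, led this list with a log2 change of 4.80. At 3.23 and 3.71 FPKM, Aqp7 was the largest part of the sum after 5-AZA. Its call was lost without 5-AZA replicate 101 (limma adjusted p = 0.0517) or 102 (0.0598), from a range that began at 4.04e-11. Slc36a2 rose by 3.79 on the log2 scale and lost its call without 101 (0.0617) or 102 (0.0727), in a range that began at 4.38e-08. Tmem26 was too low to be tested and Cd40 was listed at 0 in all 4 samples. Tbx1 was tested and overlapped between groups, at 0.688 and 0.354 FPKM untreated and 0.645 and 0.794 FPKM after 5-AZA (limma adjusted p = 0.400). Cited1 (log2 difference 1.25, limma adjusted p = 0.0761) and Shox2 (0.80, limma adjusted p = 0.0184) lay higher and were not called. Of 14 general and white fat markers, 12 were tested and 11 were called higher, where 13.1% of all genes tested were called higher. The list had sums of 91.6 and 79.9 FPKM in untreated cells and of 1201 and 1640 FPKM after 5-AZA. Of the called genes, Cidec and Slc2a4 passed the limit only through the 5-AZA samples. Plin4, a lipid droplet coat protein, made up most of the untreated sum and lay lower after 5-AZA in both samples, at 52.8 and 60.3 FPKM and at 36.1 and 47.0 FPKM (log2 difference -0.45, limma adjusted p = 0.0457, not called). The fat cell lipid carrier Fabp4 and the hormone Adipoq were both present in untreated cells, at 22.9 and 9.66 FPKM and at 5.45 and 2.10 FPKM. After 5-AZA they reached 887 and 1196 FPKM and 86.8 and 123 FPKM. The called genes with the largest log2 change were Cidec (7.12), a lipid droplet protein, Retn (6.83), a fat cell hormone, and Plin1 (6.79), which coats lipid droplets. Retn lost its call without 5-AZA replicate 101 (limma adjusted p = 0.146) or 102 (0.158) and without the low limit (0.0712), in a range that began at 4.87e-19. Plin1 lost its call without 101 (0.0623) or 102 (0.0764), in a range that began at 5.99e-17. The fat hormone Lep was too low to be tested.

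Of 12 skeletal muscle markers, 11 were tested and 11 were called higher (13.1% over all genes tested), with a median log2 change of 7.89. The list had sums of 1.89 and 1.5 FPKM in untreated cells and of 813 and 1231 FPKM after 5-AZA. Myf5 was listed at 0 in all 4 samples. Casq1, Ckm, Mb, Myh3 and Myod1 were under 0.1 FPKM in both untreated samples and passed the limit only through the 5-AZA samples. Mylpf, Acta1 and Tnnt3, all parts of the contractile apparatus, led with log2 changes of 9.79, 9.29 and 8.46. Of 10 macrophage markers, 4 were tested and 2, Fcer1g and Cd68, were called higher, Fcer1g having passed the limit only through the 5-AZA samples. Their list summed to 4.62 and 5.79 FPKM in untreated cells and to 15.9 and 19.3 FPKM after 5-AZA, and without Fcer1g to 4.52 and 5.79 FPKM and to 6.38 and 8.44 FPKM. Lyz2 overlapped between groups (log2 difference -0.22) and Cd14 was not called (limma adjusted p = 0.235), while Adgre1, Aif1 and Tyrobp were listed at 0 in all 4 samples and Ptprc reached no more than 0.0631 FPKM. Fcer1g lost its call without 5-AZA replicate 101 (limma adjusted p = 0.0557) or 102 (0.0633), in a range that began at 2.32e-15. Cd68, with a log2 change of 1.09, lost its call in 8 of 11 alternatives, among them those without untreated replicate 1, 5-AZA replicate 101 or 5-AZA replicate 102. Of 10 mesenchymal markers, 9 were tested, with a median log2 difference of 0.30. In 6 of them both 5-AZA samples lay above both untreated samples, and in 3 (Vim, Col1a1 and Col1a2) below. Over all genes tested these shares were 36.8% and 25.4%. Nt5e was listed at 0 in both untreated samples and Thy1 was under 1 FPKM there. The list had sums of 3261 and 3317 FPKM in untreated cells and of 2108 and 2358 FPKM after 5-AZA, most of it from Vim, which encodes an intermediate filament protein (2268 and 2406 FPKM untreated, 1178 and 1380 FPKM after 5-AZA). Only Thy1 was called higher there, from 0.578 and 0.785 FPKM to 10.4 and 14.2 FPKM.

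**Figure D5:**
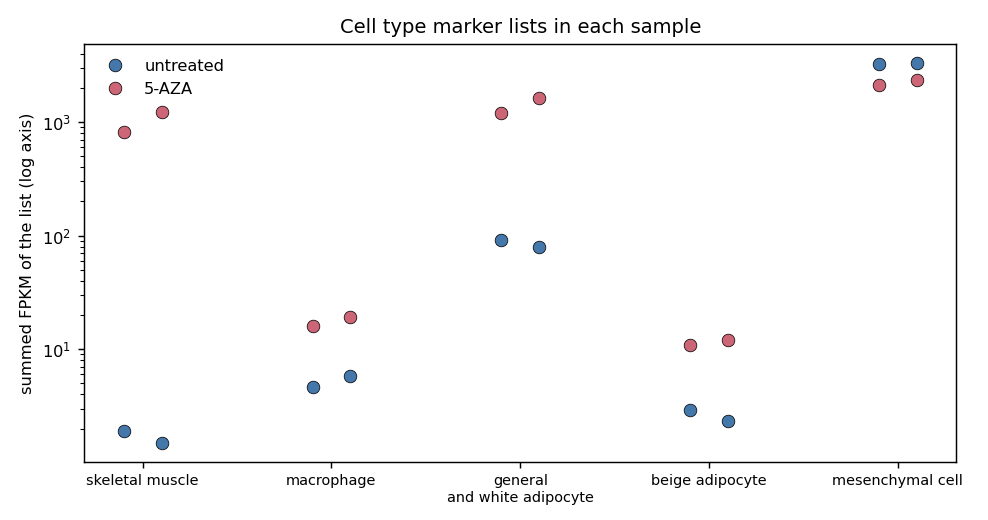
Summed FPKM of the 5 marker lists in each of the 4 samples, on a log axis. The muscle list went from under 2 FPKM to 813 and 1231 FPKM, and the general fat list from under 100 to 1201 and 1640 FPKM. The mesenchymal list went from 3261 and 3317 FPKM to 2108 and 2358 FPKM.

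The genes whose pattern over the 4 samples was nearest to that of Ucp2 were Fabp3, Pf4 and Hspb1. Their root mean square differences of centred log2(FPKM + 0.1) were 0.0558, 0.0600 and 0.0661, out of 10799 genes with a mean of at least 1 FPKM. Pf4, a chemokine of platelets and macrophages, was listed at 0 and 0.0787 FPKM in untreated cells and at 4.10 and 6.02 FPKM after 5-AZA. Nearest to Dio2 were Slc14a1, Trim55 and Gm40991, at 0.0286, 0.0730 and 0.0738. The urea transporter Slc14a1 was measured at 0.0833 and 0.0898 FPKM in untreated cells and at 4.41 and 4.09 FPKM after 5-AZA. With 4 samples in 2 groups, this measure is set largely by the size of the group difference.

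The long noncoding RNA (lncRNA) and circular RNA tables were searched at the members' loci, a search added after the mRNA values were seen. Within 10 kb of the 9 genes lay 200 lncRNA transcripts, of which 145 were at Ppargc1a, 34 at Prdm16, 7 at Cidea, 5 at Adrb3, 5 at Dio2, 3 at Ucp3 and 1 at Ucp2. None lay near Ucp1 or Elovl3. Only 5, all at Ppargc1a, were high enough to be tested. Of these, 0 were called by limma and 0 had an unadjusted p under 0.05, where 0.984% of the 24075 lncRNAs tested were called higher and 0.154% lower, 1.14% in all. The highest of the untested ones reached 0.188 FPKM. NONMMUT120414.1, within the span of Ppargc1a, was measured at 1.02 and 0.615 FPKM in untreated cells and at 0.838 and 0.843 FPKM after 5-AZA (log2 difference 0.07, limma adjusted p = 0.941). It lies on the strand of Ppargc1a, so reads of both could not be fully told apart. None of the 4295 circular RNAs had a member as its host gene.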

How the data were processed

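Total RNA of C3H10T1/2 cells was sequenced by the authors from strand-marked libraries. Their mRNA and lncRNA tables hold FPKM per transcript, and the deposited circular RNA table holds RPM (reads scaled to the library). The submitters' processing notes name Trimmomatic, HISAT2, Bowtie2 2.2.9, eXpress 1.5.1 and mm9. Yet 87.3% of 2356 circular RNA host transcripts lay within the GRCm38.p6 gene of the same symbol, and GRCm38.p6 was used. FPKM keeps no counts, so depth behind single values is unknown. FPKM sums per sample ranged from 328410 to 361664.

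Transcripts were summed per gene, and limma 3.58.1 (R 4.3.3, lmFit and eBayes with trend) was run on log2(FPKM + 0.1) for 5-AZA against untreated, 2 samples each, with Benjamini-Hochberg adjustment over all genes tested. The code was tested on simulated data. The count model of the study needs raw counts and was not used. A two-sided exact permutation test of 2 against 2 cannot go below 0.333. The study calls its replicates biological, but the labels do not say whether they were separate cultures, so p-values measure the spread between these samples, which may be technical.

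The members and lists were chosen with earlier results of these data known. Beside the members, the text names of each list up to 3 called genes with the largest change, non-overlapping groups and a higher mean of at least 1 FPKM, and the 3 genes most like each member with a mean of at least 1 FPKM. Other genes were named after their values were seen. Alternatives were pseudocounts of 1 and 0.01, no limit or a limit of 1 FPKM, median centring, quantile normalization, eBayes without trend, curated transcripts alone and each sample left out. Values of 1 gene of the signalling list are not reported here.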

Additional observations from a re-analysis of the deposited data

How the results depend on the processing

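No paired analysis was possible because the groups share no replicate numbers. Over the alternatives of the single genes named, 244 values kept direction and side of the threshold, 40 lost the call and 1 turned direction, Ppargc1a at -0.10 on the log2 scale after quantile normalization. With a limit of 1 FPKM only Ucp2 and Dio2 of the members were tested, so 2 members rather than 5 and 12 pathway genes rather than 19 were called higher. Leaving out each sample gave 4 to 4 members and 9 to 19 pathway genes, the lone sample of a group being assumed to vary like the others. Those 9 and 11 pathway genes came without 5-AZA replicates 102 and 101. Quantile normalization called 2 pathway genes lower, Foxc2 and Slc25a27 (-1.10 on the log2 scale for the latter). Curated transcripts alone called Gk lower (-1.79, limma adjusted p = 0.0377). Quantile normalization moved the median over all genes to -0.12, from 0.05 here and -0.06 with median centring. The 3 called member transcripts fell to 0 without the limit on low values and to 0 in each fit without a sample. Over all genes, 1724 higher and 174 lower became 875 and 86 with a pseudocount of 1, 845 and 122 with a limit of 1 FPKM, 1179 and 83 without a limit, 1041 and 886 after quantile normalization, 977 and 50 without 5-AZA 101 and 785 and 66 without 5-AZA 102. The cause of these shifts was not tested.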
